A study of Mus musculus with 41 samples.

Results

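Imprinted genes are genes that mammals express mainly from 1 parental copy. Here 49 of them, listed by name and grouped into 21 imprinted clusters, were followed through the exit of mouse embryonic stem cells from naive pluripotency. A WT line was compared with 2 lines labelled as depleted for the nuclear receptor Esrrb. Members were the listed genes with at least 1 CPM (reads of a gene scaled to 1000000 assigned reads per library) in at least 3 of 41 libraries. Of the 49, 46 met this rule, out of 16967 genes that met it in the whole table, and they covered 20 clusters. Igf2, Rtl1 and Rasgrf1 did not. The 15 WT libraries alone would have admitted 43 members. Slc22a18, Zim1 and Airn passed only through the depleted libraries, and no member passed only through WT.

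All libraries came from E14, a mouse embryonic stem cell line derived from the blastocyst. KO2 and KO3, both labelled as genetically depleted for Esrrb, were compared with WT, a line with intact Esrrb that the labels also call PGG. Each line was sampled in 2iL, which is N2B27 medium with CHIR99021, PD0325901 and LIF, and then on days 1, 3 and 5 of AloXR (activin A, XAV and BMS439 in N2B27), entered after 1 day in plain N2B27. Groups held 3 libraries in 2iL and 4 on each AloXR day, except KO3 with 2 libraries on day 3 and 2 on day 5. RNA was read as 3′ tags of polyadenylated transcripts with QuantSeq.

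Libraries held 3424064 to 5736053 assigned reads, so that 0 reads allowed at most 0.523 to 0.876 CPM (3 reads; counting error only). All 53 pairs of libraries within a group differed by more than counting noise, with a mean chi-square of at least 1.62 per gene. Over the 7 groups of 4, the median was 2.88 within libraries 1 and 2 or 3 and 4, and 5.68 across these pairs. In 3 of these groups both pairs were closer than any libraries across them, and in the other 4 they were not. Some calls of members for both depleted lines against WT, given below with their log2 difference, are lost when such pairs are averaged. For these the adjusted p under that setting is added. Calls of single lines, of KO3 against KO2, of changes within a line and of differences of changes are not marked in this way. Several of these comparisons held fewer calls under that setting. In 2iL, library 3 was far from libraries 1 and 2 in KO3 (34.9 and 17.5) and in WT (29.5 and 17), where libraries 1 and 2 differed by 11.3 in KO3 and 8.03 in WT, and in KO2 libraries 1 and 3 were the furthest apart (21.6). Whether the libraries within a group came from separate cultures is not in the labels, so p-values measure only the spread between libraries. All 12 groups share 1 estimate of this spread per gene. The p-values in 2iL thus also rest on AloXR libraries, most of which lay closer to each other than the 2iL libraries did. With 1 WT line and 2 depleted lines, loss of Esrrb and other differences between the lines cannot be told apart. Esrrb tags were 52.0 to 56.7 CPM in KO2, 103 to 166 CPM in KO3 and 309 to 434 CPM in WT in 2iL. On AloXR day 1 they were 26.1 to 41.4 CPM in KO3, above the 12.1 to 17.7 CPM of WT, and 1.64 to 5.52 CPM in KO2. The labels do not say which part of the gene was removed, so a 3′ tag does not check the depletion.

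As background, imprints are laid down as DNA methylation in the egg or the sperm, at control regions that keep the mark through the genome-wide demethylation of the early embryo. The zinc finger proteins Zfp57 and Zfp445 bind methylated control regions and recruit Trim28, while Dnmt1 and Uhrf1 copy the methylation at each division. At most maternally methylated control regions the unmethylated paternal copy drives a non-coding RNA or a paternally expressed gene. At the H19-Igf2 and Dlk1-Meg3 clusters the paternal copy carries the mark, and the maternal copy expresses the non-coding RNAs H19 and Meg3. Many paternally expressed genes promote growth of the fetus and placenta and many maternally expressed genes restrain it. Reads were not split by parental copy, so these data measure the RNA level of each gene and not its imprint.

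Starts of 38 members were found in the RefSeq promoter table (GRCm38.p6), as 55 windows of 250 bases before to 50 bases after a start. H19 and Peg10 were not among them. The windows shown belong to the 6 members in the table with the largest changes against WT. They are read 5′ to 3′ on the gene's strand, and capitals mark TGCCGC, the motif bound by Zfp57 when methylated, or its reverse complement GCGGCA.
Ascl2, chr7:142969215-142969514, minus strand: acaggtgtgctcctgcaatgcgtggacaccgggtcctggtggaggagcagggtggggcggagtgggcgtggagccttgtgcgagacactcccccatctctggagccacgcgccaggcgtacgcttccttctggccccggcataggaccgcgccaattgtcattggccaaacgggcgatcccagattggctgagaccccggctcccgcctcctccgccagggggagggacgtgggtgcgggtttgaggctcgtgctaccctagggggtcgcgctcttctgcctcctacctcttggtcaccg
Plagl1, chr10:13090582-13090881, plus strand: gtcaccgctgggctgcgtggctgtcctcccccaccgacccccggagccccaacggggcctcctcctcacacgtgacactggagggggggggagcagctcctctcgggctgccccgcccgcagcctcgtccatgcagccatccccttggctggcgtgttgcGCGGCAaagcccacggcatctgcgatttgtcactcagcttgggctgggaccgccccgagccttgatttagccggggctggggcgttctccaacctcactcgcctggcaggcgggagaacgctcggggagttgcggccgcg
Nap1l5, chr6:58907077-58907376, minus strand: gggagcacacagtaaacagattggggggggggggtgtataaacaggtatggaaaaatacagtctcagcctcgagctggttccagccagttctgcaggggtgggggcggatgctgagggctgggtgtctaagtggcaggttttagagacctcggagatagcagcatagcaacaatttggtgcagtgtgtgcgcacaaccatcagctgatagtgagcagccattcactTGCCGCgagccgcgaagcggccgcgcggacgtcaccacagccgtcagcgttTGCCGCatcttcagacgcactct
Magel2, chr7:62376729-62377028, plus strand: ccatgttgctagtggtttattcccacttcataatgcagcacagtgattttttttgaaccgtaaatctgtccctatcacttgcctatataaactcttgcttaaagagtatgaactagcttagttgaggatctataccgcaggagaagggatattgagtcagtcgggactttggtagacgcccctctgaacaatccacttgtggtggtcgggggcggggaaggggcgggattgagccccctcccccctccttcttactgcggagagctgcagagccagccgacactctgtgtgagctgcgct
Peg12, chr7:62464461-62464760, minus strand: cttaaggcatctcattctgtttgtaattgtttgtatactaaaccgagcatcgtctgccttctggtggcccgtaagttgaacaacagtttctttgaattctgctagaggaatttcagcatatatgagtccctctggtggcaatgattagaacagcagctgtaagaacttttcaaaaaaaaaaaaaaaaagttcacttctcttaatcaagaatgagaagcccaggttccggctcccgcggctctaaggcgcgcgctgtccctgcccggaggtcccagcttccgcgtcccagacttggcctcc
Slc22a3, chr17:12507655-12507954, minus strand: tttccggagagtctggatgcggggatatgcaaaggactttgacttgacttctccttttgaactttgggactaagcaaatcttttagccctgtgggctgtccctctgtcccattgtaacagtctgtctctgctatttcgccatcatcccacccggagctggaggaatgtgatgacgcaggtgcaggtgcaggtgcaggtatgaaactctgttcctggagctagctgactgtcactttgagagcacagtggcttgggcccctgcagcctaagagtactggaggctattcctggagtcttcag
On either strand, TGCCGC stood in 14 of the 55 member windows (25.5%), against 11.6% of 32851 promoters of the same length. Windows of the same member can overlap, as for Mest, and the 14 belong to 13 members. The motif contains a CG, and the promoters compared were not matched for CG content. Among those printed, the Plagl1 window held 1 match, the Nap1l5 window 2 and the others none. The core of the Esrrb motif, AAGGTCA, stood in 2 member windows (3.64%), those of Ddc and Meg3, against 4.72% of all promoters. The longer form TCAAGGTCA, which contains the core, stood in 0.423% of all promoters. Neither form stood in a window shown. The printed windows held 23, 26, 17, 10, 12 and 5 CG dinucleotides in their order, against a median of 7 over all promoters. A match is a run of letters and not a bound site.

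H19 and Peg10 were higher in the depleted lines at all 4 stages, by 2.09 to 5.44 on the log2 scale, and no other member was. A further 10 members were higher at 3 stages and lower at none: Cdkn1c, Sgce, Plagl1, Mest, Meg3, Rian, Nnat, H13, Peg13 and Zdbf2. Over the whole table, 0.607% of genes were higher at all 4 stages, and 2.13% at 3 stages and lower at none. In all, 24 members were higher at 1 or more stages and lower at none, and 6 were lower at 1 or more stages and higher at none, namely Copg2, Ddc, Igf2r, Slc22a3, Gnas and Mcts2. Of all genes, 19.9% met the first of these rules and 18.6% the second. Usp29, Grb10 and Peg12 were higher at some stages and lower at others, as were 2.47% of all genes. The remaining 13 were not called at any stage: Cd81, Tssc4, Kcnq1ot1, Nap1l4, Zim1, Dlk1, Mkrn3, Ube3a, Airn, Zrsr1, Commd1, Trappc9 and Inpp5f. The share of all genes called at no stage was 59.0%. Changes are log2(CPM + 1) differences of the mean of KO2 and KO3 minus WT from limma, with the standard error (SE) of the fit. Calls required an adjusted p (Benjamini-Hochberg, over all 16967 genes) under 0.05, 1.5-fold or more (0.58, log2) and the same direction in both lines. In these cultures of many cells, fewer cells expressing a gene and less RNA per cell cannot be told apart.

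In 2iL, 12 members were higher and 3 lower in the depleted lines, or 32.6% of the 46, where 15.7% of all genes were called (8.11% higher and 7.6% lower). On AloXR day 1, 13 were higher and 3 lower (34.8% of members, against 11.8% of all genes, 6.31% higher and 5.5% lower). On day 3, 17 were higher and 4 lower (45.7%, against 17.3%, of which 10.8% higher and 6.49% lower). On day 5, 16 were higher and 7 lower (23 of 46, against 20.6%, of which 8.89% higher and 11.7% lower). Members were thus called more often than genes at large at each stage, mainly through rises. The share of members higher was 26.1%, 28.3%, 37.0% and 34.8% over the 4 stages in time order. The share lower was 6.52%, 6.52%, 8.70% and 15.2%, which was below that of all genes in 2iL and a little above it on the other days. Their median log2 difference was 0.26, 0.47, 0.40 and 0.31 over the 4 stages in time order, beside 0.04, 0.02, 0.03 and 0.00 over all genes. Slc22a18, higher on day 3, passed the level rule only through the depleted libraries; among the 43 members that WT alone admits, 16 were higher and 4 lower on that day, and the counts at the other stages were as given. With library pairs averaged, 8 members were called on day 1, and 5.43% of all genes. With only the 2iL groups in the fit, the share of all genes called in 2iL was 8.16%. The count of members there stayed within 1.5 times that reported. Genes of 1 cluster share control regions and are not independent of each other.

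**Figure D1:**
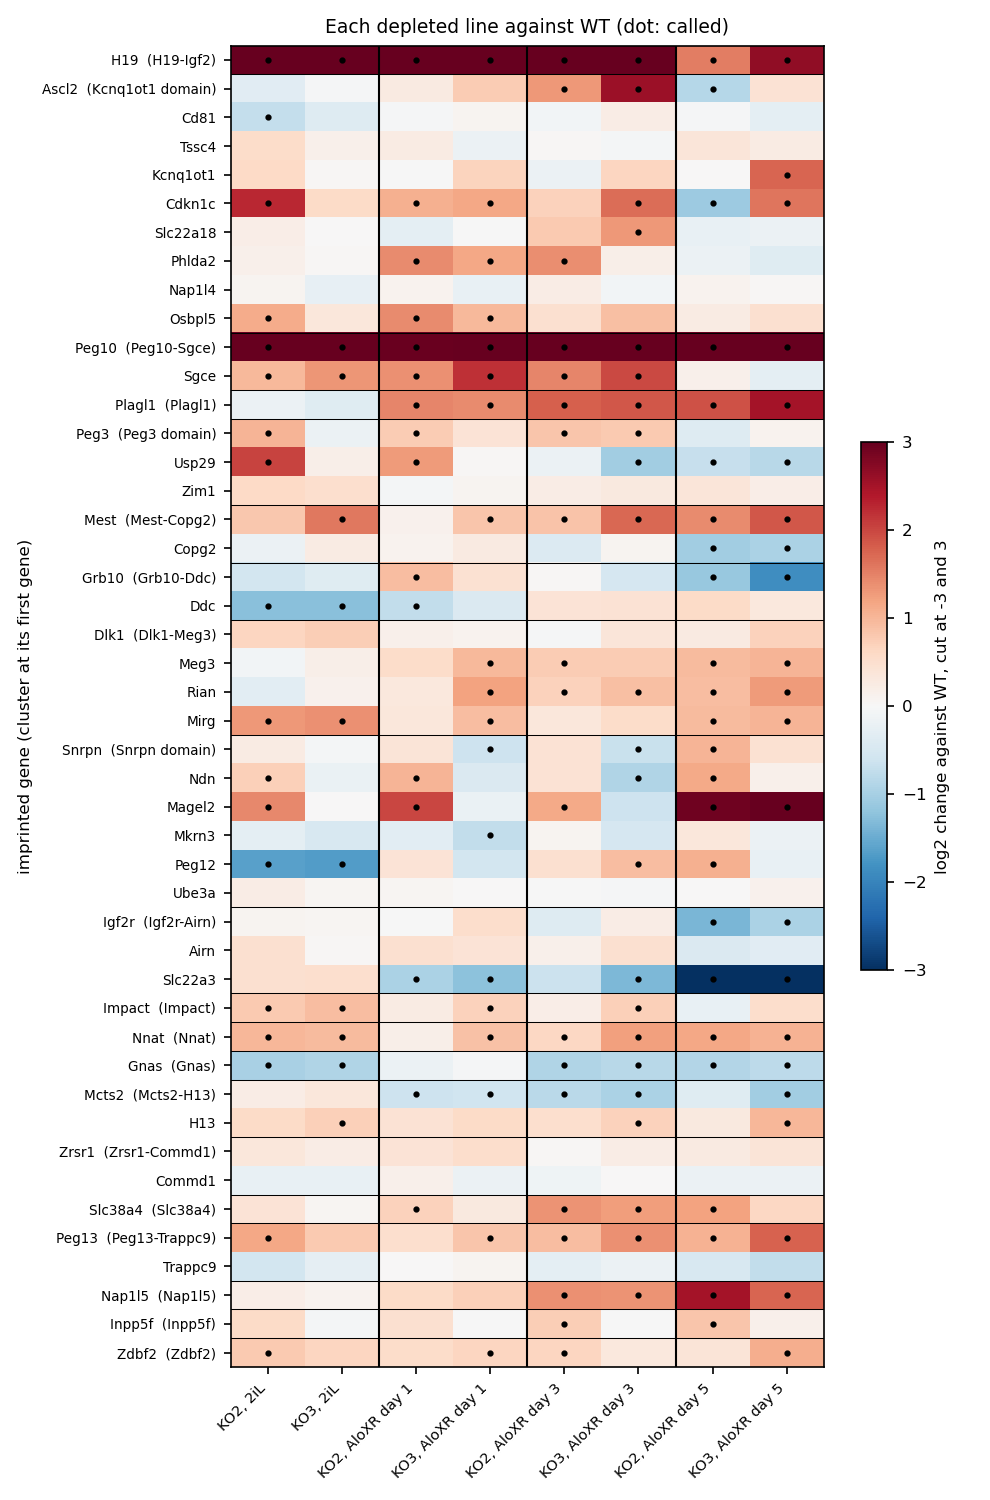
Log2 difference from WT of each of the 46 members (rows, grouped by cluster) in KO2 and KO3 (columns, by stage), with colours cut at -3 and 3 and a dot where the difference was called in that line. H19 and Peg10 are called in all 8 columns, and the Snrpn domain differs in sign between KO2 and KO3 in several columns.

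By line, KO2 had 14 members higher and 4 lower than WT in 2iL, where 9.9% of all genes were higher and 7.94% lower (17.8% together). Its day 1 counts were 13 higher and 3 lower (6.75% and 6.72% of all genes, 13.5% together), on day 3 17 and 2 (7.31% and 6.98%, 14.3% together) and on day 5 16 and 8 (6.27% and 10.6%, 16.8% together). KO3 had 8 members higher and 3 lower in 2iL, where 6.12% of all genes were higher and 7.1% lower (13.2% together). Its day 1 counts were 15 and 4 (8.5% and 6.93%, 15.4% together), on day 3 17 and 6 (12.7% and 6.24%, 19% together) and on day 5 15 and 7 (12.8% and 12.6%, 25.5% together). Both lines are compared with the same WT libraries, so these counts are not independent. By expected parental origin, 8, 6, 10 and 11 of the 24 paternally expressed members were higher over the 4 stages in time order, and 2 were lower at each. Of the 21 maternally expressed members, 4, 7, 7 and 5 were higher and 0, 1, 1 and 4 lower. Many of these 21 are listed as imprinted only in restricted tissues: Ascl2, Cd81, Tssc4, Nap1l4, Osbpl5, Copg2, Ube3a, Slc22a3, Commd1 and Trappc9. The same holds for Ddc and Inpp5f among the paternally expressed members, and for Gnas. Whether they are expressed from 1 parental copy in these cells was not tested. Both classes thus held more rises than falls at every stage, though the maternal class only by 5 to 4 on day 5. All genes also held more rises in 2iL (8.11% higher, 7.6% lower), on day 1 (6.31%, 5.5%) and on day 3 (10.8%, 6.49%). On day 5 they did not (8.89%, 11.7%). The maternal day 3 count includes Slc22a18, which passed the level rule only through the depleted libraries. Gnas, whose transcripts differ in their parental origin, is counted in neither class.

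H19 is a non-coding RNA of the maternal copy, transcribed from chr7:142575529-142578143 on the minus strand (GRCm38), and its first exon carries the hairpin of miR-675. KO2 libraries held 305, 231 and 195 CPM of it in 2iL and KO3 libraries 52.1, 57.3 and 181 CPM, against 2.96, 1.30 and 2.79 CPM in WT. Every depleted library was above every WT library, by 5.44 on the log2 scale (SE 0.45, adjusted p = 9.65e-11). Within KO3, library 3 was the high one.

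On AloXR day 1 H19 was at 302, 294, 347 and 376 CPM in KO2 and 194, 178, 441 and 454 CPM in KO3, against 6.13, 6.73, 10.3 and 8.31 CPM in WT (log2 difference 5.14, SE 0.39, adjusted p = 1.82e-11). Day 3 levels were 571, 804, 163 and 216 CPM in KO2 and 473 and 427 CPM in KO3, against 8.93, 14.2, 6.88 and 6.33 CPM in WT (5.38, SE 0.42, adjusted p = 2.96e-11). The groups did not overlap on either day, although libraries within a line differed up to several-fold. On day 5 H19 stood at 291, 129, 71.2 and 67.9 CPM in KO2 and 263 and 250 CPM in KO3, against 44.3, 45.6, 38.9 and 31.9 CPM in WT. The lines were still separate, and the log2 difference was 2.09 (SE 0.42, adjusted p = 2.97e-04). In WT, H19 was 3.65 (log2) above its 2iL level on day 5. The change since 2iL was 3.34 lower on the log2 scale in the depleted lines than in WT (log2 difference of changes -3.34, SE 0.61, adjusted p = 1.85e-04).

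Igf2, the fetal growth factor gene that shares enhancers with H19 and is expressed from the other parental copy, was listed with at most 1 read in any library. This cannot be read as absence, because 99.7% of the last 1000 exon bases of Igf2, where 3′ tags fall, lie on the same strand under a second annotated gene, Gm49394, which was itself at 0 reads in all libraries. Among the 10 nearest tested genes, 5 on each side of the cluster, Tnni2 and Nctc1 were also higher in 2iL, by 1.60 and 1.32 on the log2 scale, and the median was 0.29. Nctc1 is a non-coding RNA gene next to H19, with a mean of only 0.43 CPM over all libraries. On days 1, 3 and 5 the neighbours' medians were 0.05, 0.19 and -0.05. Within 2 Mb of the start of H19 lie 9 other members, of which Cdkn1c was higher in 2iL. Of the 69 tested genes there that are not members, 5 were higher and 3 lower, with differences between -1.43 and 1.60. The difference of H19 lay outside that range.

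**Figure D2:**
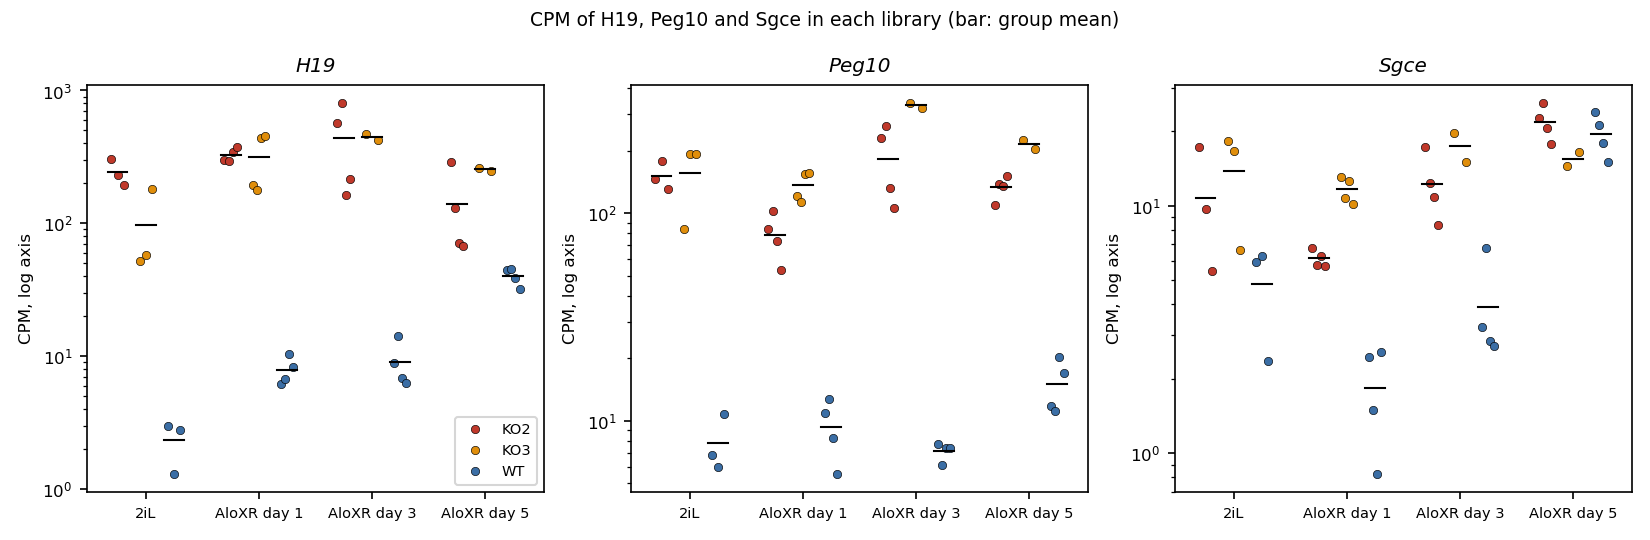
CPM of H19, Peg10 and Sgce in each library on a log axis, by stage and by line (KO2 red, KO3 orange, WT blue), with black bars at the group means. H19 and Peg10 are higher in every depleted library than in every WT library of the same stage, while Sgce overlaps on AloXR day 5.

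Peg10 (chr6:4747306-4760517, plus strand) derives from a retrotransposon gag-pol gene, is expressed from the paternal copy and is required for placental development. In 2iL it was at 146, 177 and 130 CPM in KO2 and 84.1, 192 and 192 CPM in KO3, against 6.83, 5.99 and 10.7 CPM in WT (log2 difference 4.11, SE 0.27, adjusted p = 1.55e-13). On day 1 it was at 83.6, 103, 73.6 and 53.2 CPM in KO2 and 121, 113, 154 and 156 CPM in KO3, against 10.9, 12.7, 8.25 and 5.54 CPM in WT (3.36, SE 0.23, adjusted p = 7.66e-13). No depleted library overlapped WT at these stages. On day 3 Peg10 reached 230, 263, 132 and 106 CPM in KO2 and 339 and 321 CPM in KO3, against 7.71, 6.11, 7.35 and 7.42 CPM in WT (4.87, SE 0.25, adjusted p = 5.69e-16). On day 5 it was at 109, 138, 135 and 150 CPM in KO2 and 224 and 203 CPM in KO3, against 11.8, 11.1, 20.2 and 17 CPM in WT (3.44, SE 0.25, adjusted p = 4.23e-12). KO3 was above KO2 in every library on days 1, 3 and 5, and that difference was called on day 1 (log2 0.81, SE 0.27, adjusted p = 0.0254).

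Sgce, which encodes epsilon-sarcoglycan and starts beside Peg10 on the opposite strand, had smaller differences and was not called on day 5. In 2iL it was at 17.2, 9.74 and 5.44 CPM in KO2 and 18.2, 16.6 and 6.62 CPM in KO3, against 5.92, 6.25 and 2.36 CPM in WT (log2 difference 1.14, SE 0.28, adjusted p = 0.00193). The lowest KO2 library lay within the WT range, and library 3 was the lowest in each line. Day 1 levels were 6.78, 5.75, 6.29 and 5.73 CPM in KO2 and 13.1, 10.7, 12.6 and 10.2 CPM in KO3, against 2.45, 1.5, 0.825 and 2.56 CPM in WT (1.79, SE 0.24, adjusted p = 2.13e-07). Day 3 levels were 17.4, 12.4, 10.8 and 8.34 CPM in KO2 and 19.7 and 15.1 CPM in KO3, against 3.25, 6.77, 2.85 and 2.71 CPM in WT (1.72, SE 0.26, adjusted p = 1.79e-06). The groups were separate on both days. On day 5 they overlapped, with 22.5, 26, 20.7 and 17.7 CPM in KO2 and 14.5 and 16.5 CPM in KO3, against 24, 21.2, 18 and 15.1 CPM in WT (-0.07, SE 0.26, adjusted p = 0.87). Its change since 2iL differed from WT by -1.21 on day 5 (SE 0.38, adjusted p = 0.0189).

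Among the 10 nearest tested genes to Peg10 and Sgce, Col1a2 (a collagen chain gene) and Casd1 were higher in 2iL by 1.43 and 0.67 on the log2 scale, while Gm44250, Pon3 and Pon2 had differences of -1.05, -1.41 and -0.69. Pon2, a paraoxonase gene, was higher on days 1, 3 and 5, by 1.62, 1.40 and 1.78. The neighbours' medians were 0.06, 0.37, 0.38 and 0.22 over the 4 stages in time order. Of the 19 tested genes other than Sgce within 2 Mb of the start of Peg10, 2 were higher and 3 lower in 2iL. Here too the genes are only those outside the list, and their own imprinting was not considered.

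**Figure D3:**
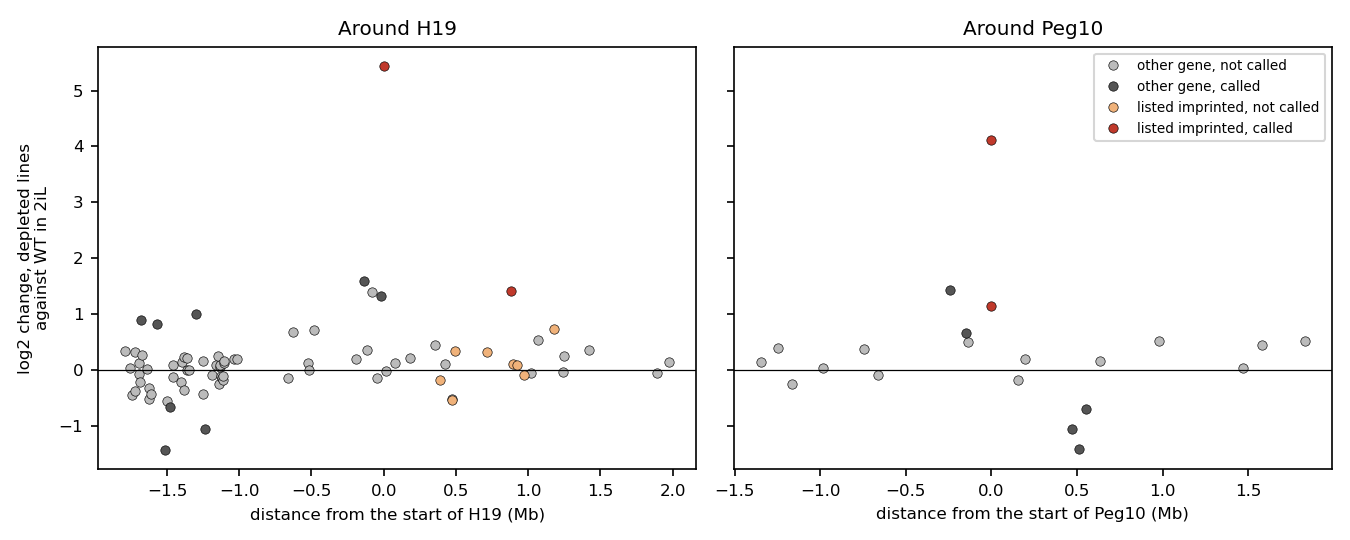
Log2 difference between the depleted lines and WT in 2iL (vertical axis) of every tested gene within 2 Mb, against its distance from the start of H19 (left) or Peg10 (right) in Mb. H19 at 5.44 and Peg10 at 4.11 lie above all other genes shown, whose differences run between -1.43 and 1.60.

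The Kcnq1ot1 domain lies beyond Igf2 on chromosome 7 and holds maternally expressed growth restrainers, silenced on the paternal copy by the non-coding RNA Kcnq1ot1. Of its 9 tested members, 1 was higher in 2iL and 3 on day 1, and Cdkn1c and Ascl2 were higher on day 3, as was Slc22a18, which entered only through its depleted libraries. Beside these, 8.11%, 6.31% and 10.8% of all genes were higher in 2iL, on day 1 and on day 3. None was called in both lines together on day 5. Cdkn1c, which encodes the cyclin-dependent kinase inhibitor p57, was at 21.9, 19.9 and 11.9 CPM in KO2 and 5.12, 2.80 and 6.80 CPM in KO3 in 2iL, against 3.64, 3.12 and 1.93 CPM in WT (log2 difference 1.41, SE 0.27, adjusted p = 1.06e-04). On day 1 it was at 56.0, 47.1, 57.5 and 46.1 CPM in KO2 and 44.2, 51.0, 67.9 and 60.3 CPM in KO3, against 23.5, 20.9, 29.1 and 23.4 CPM in WT (1.11, SE 0.23, adjusted p = 4.39e-04). In 2iL KO3 overlapped WT, on day 1 all depleted libraries were above WT, and on day 3 it was also called (1.19, SE 0.25).

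On day 5 Cdkn1c was the only member called in opposite directions in the depleted lines. It was at 5.01, 4.02, 0.891 and 1.95 CPM in KO2 and 22.7 and 22 CPM in KO3, against 6.76, 7.73, 7.27 and 5.24 CPM in WT. KO2 differed from WT by -1.09 on the log2 scale (SE 0.27, adjusted p = 0.00224) and KO3 by 1.60 (SE 0.33, adjusted p = 2.66e-04), and no library of any line overlapped another line. Kcnq1ot1, which silences Cdkn1c in cis in the embryo, was higher in KO3 on the same day, at 134 to 148 CPM, against 29.4 to 53.9 CPM in KO2 and 24.8 to 54.8 CPM in WT. KO3 minus KO2 was 1.74 for Kcnq1ot1 (SE 0.55, adjusted p = 0.0275) and 2.7 for Cdkn1c (SE 0.33, adjusted p = 1.44e-07).

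Phlda2, a restrainer of placental growth, was at 18.1, 21.2, 13.7 and 16.1 CPM in KO2 and 15.5, 11.6, 14.4 and 15.6 CPM in KO3 on day 1, against 5.95, 4.30, 7.22 and 5.97 CPM in WT (log2 difference 1.29, SE 0.30, adjusted p = 0.00186). The groups were separate, but with library pairs averaged the adjusted p was 0.0902. Osbpl5, an oxysterol-binding protein gene, was at 2.01, 1.38, 3.96 and 1.91 CPM in KO2 and 1.96, 0.656, 0.857 and 2.26 CPM in KO3, against 0.700, 0, 0 and 0.213 CPM in WT on that day (1.19, SE 0.26, adjusted p = 5.49e-04). These levels are near the detection limit. Ascl2, a transcription factor gene needed for the spongiotrophoblast of the placenta, was at 11.4, 8.83, 3.96 and 3.10 CPM in KO2 and 17.3 and 14.8 CPM in KO3 on day 3, against 2.03, 1.75, 2.37 and 1.45 CPM in WT (1.93, SE 0.30, adjusted p = 3.68e-06). It was called at no other stage in both lines, and its change since 2iL differed from WT by 2.11 on day 3 (SE 0.45, adjusted p = 5.35e-04). Slc22a18, a transporter gene, was called on day 3 (1.04, SE 0.29) at means of 0.847 CPM in KO2 and 1.80 CPM in KO3, against 0.0507 CPM in WT, and lost the call without KO3 library 1 (adjusted p = 0.0872) or with library pairs averaged (0.0980). Its level in the depleted lines is what admitted it to the test.

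Plagl1, a zinc finger transcription factor gene that has been placed upstream of other imprinted genes in a network, fell in all lines on leaving 2iL but less in the depleted lines. On day 1 it was at 5.02, 4.60, 3.03 and 3.00 CPM in KO2 and 3.92, 4.59, 3.64 and 2.71 CPM in KO3, against 0.875, 0.561, 0.413 and 1.28 CPM in WT (log2 difference 1.44, SE 0.25, adjusted p = 1.90e-05). On day 3 it was at 4.34, 2.27, 7.09 and 5.43 CPM in KO2 and 4.94 and 4.62 CPM in KO3, against 0.609, 0.218, 1.42 and 0.362 CPM in WT (1.82, SE 0.27, adjusted p = 7.68e-07). On day 5 it was at 2.05, 4.97, 4.90 and 12 CPM in KO2 and 8.45 and 7.70 CPM in KO3, against 0.436, 0.198, 0.909 and 1.09 CPM in WT (2.20, SE 0.27, adjusted p = 1.41e-08). All groups of depleted lines were above WT in AloXR, and in 2iL the difference was -0.27 (SE 0.29, adjusted p = 0.57). The change since 2iL differed from WT by 1.71, 2.09 and 2.47 on days 1, 3 and 5.

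Nap1l5, an intronless nucleosome assembly protein gene, followed on days 3 and 5. On day 3 it was at 7.99, 8.07, 15.0 and 14.3 CPM in KO2 and 9.05 and 12.7 CPM in KO3, against 2.64, 1.53, 6.64 and 5.43 CPM in WT (log2 difference 1.36, SE 0.27, adjusted p = 1.13e-04). On day 5 it was at 5.01, 8.99, 10.5 and 13.6 CPM in KO2 and 5.56 and 4.30 CPM in KO3, against 0.654, 0.594, 1.59 and 0.436 CPM in WT (2.12, SE 0.27, adjusted p = 3.17e-08). The groups did not overlap on either day. Of the windows printed above, those of Plagl1 and Nap1l5 hold TGCCGC, and those of Ascl2 and Magel2, each higher at 1 stage, do not. Elsewhere the motif stood in windows of Osbpl5, Mest, Meg3, Snrpn, Nnat and Zdbf2, called only higher. It also stood in windows of Copg2 and Mcts2, called only lower, of Grb10, called both ways, and of Zim1 and Commd1, called at no stage. A link between the motif and these differences was not tested.

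Mest, an alpha/beta hydrolase gene of mesoderm, was at 117, 201 and 243 CPM in KO2 and 212, 312 and 438 CPM in KO3 in 2iL, against 75.1, 75.7 and 185 CPM in WT (log2 difference 1.20, SE 0.27, adjusted p = 0.0013). On day 3 it was at 366, 236, 472 and 303 CPM in KO2 and 593 and 630 CPM in KO3, against 185, 168, 205 and 178 CPM in WT (1.29, SE 0.25, adjusted p = 2.41e-04). In 2iL library 3 was the highest of each line and the lowest KO2 library lay within the WT range, whereas on day 3 the groups were separate. On day 5 Mest was at 258, 489, 529 and 537 CPM in KO2 and 652 and 548 CPM in KO3, against 194, 178, 156 and 133 CPM in WT (1.64, SE 0.25, adjusted p = 8.95e-06). Copg2, a coatomer subunit gene next to Mest on the opposite strand, went the other way on day 5, at 42.3 to 65.5 CPM in KO2 and 51.2 to 53.2 CPM in KO3, against 98.2 to 103 CPM in WT (-1.0, SE 0.21, adjusted p = 4.05e-04). The strand setting of the authors' counting is not given in the sources used here, so reads of overlapping genes may not be fully separated.

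**Figure D4:**
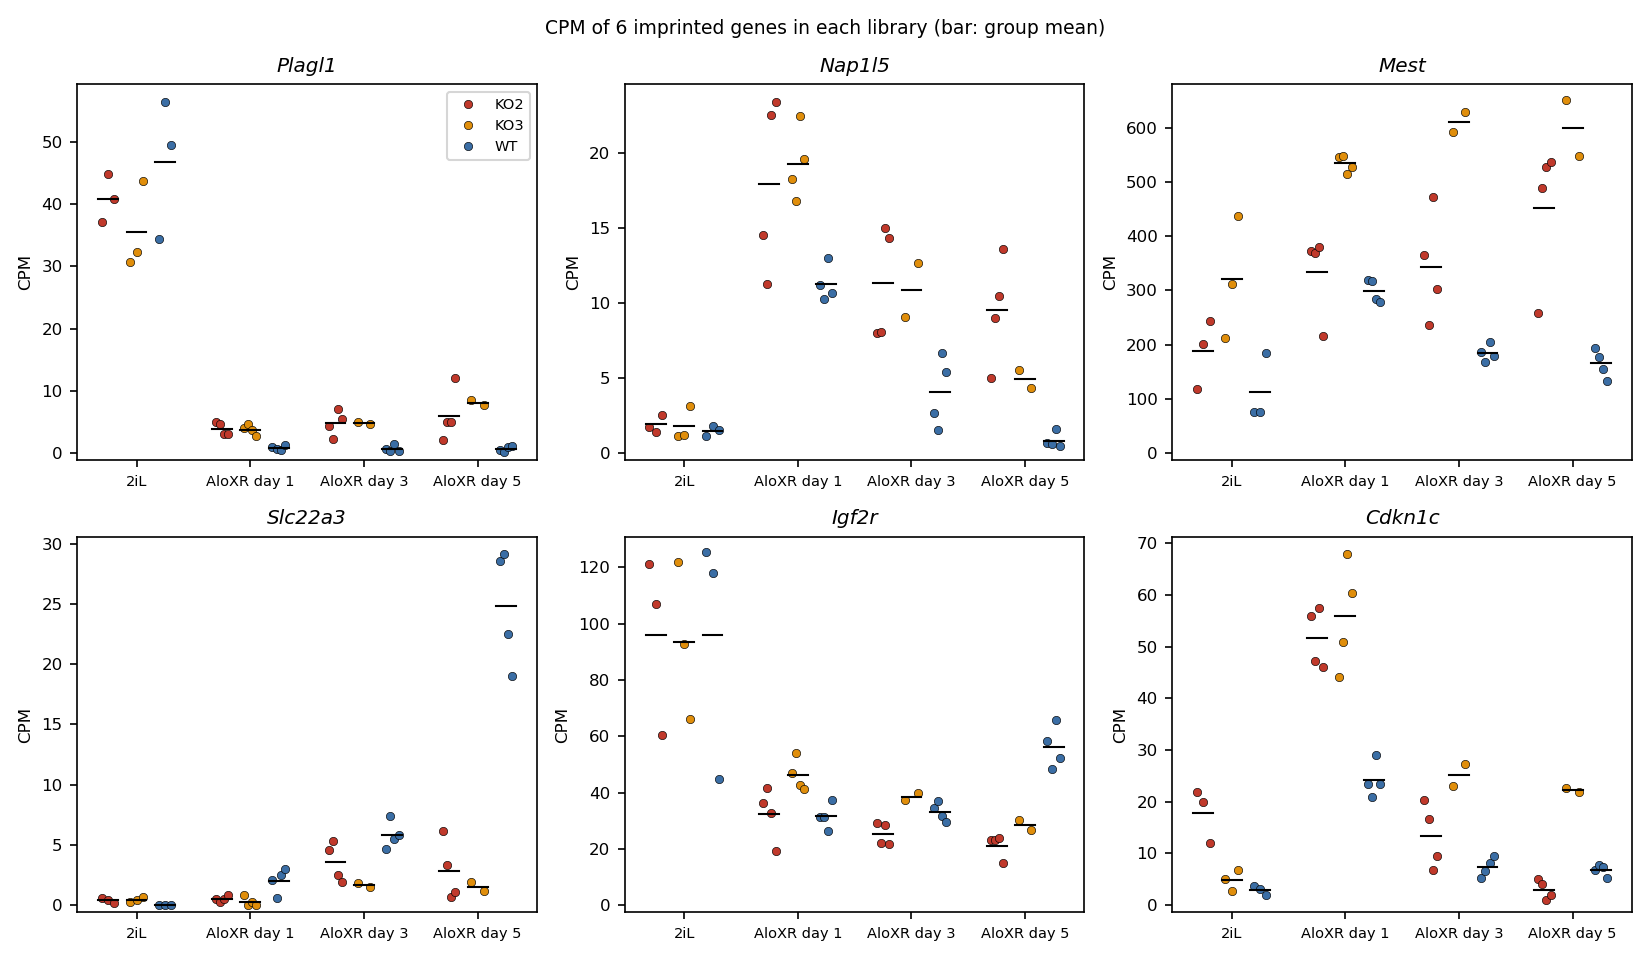
CPM of Plagl1, Nap1l5, Mest, Slc22a3, Igf2r and Cdkn1c in each library on linear axes, by stage and line (KO2 red, KO3 orange, WT blue), with black bars at the group means. On AloXR day 5 the depleted lines lie above WT for Plagl1, Nap1l5 and Mest, below WT for Slc22a3 and Igf2r, and on both sides of WT for Cdkn1c.

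Slc38a4, an amino acid transporter gene, was at 59.2, 48.9, 51.7 and 37.6 CPM in KO2 and 44.8 and 46.2 CPM in KO3 on day 3, against 20.3, 19.6, 17.3 and 17.2 CPM in WT (log2 difference 1.30, SE 0.21, adjusted p = 9.92e-06). All 6 depleted libraries were above WT, and on day 5 it was also higher (0.91, SE 0.21; adjusted p = 0.0564 with library pairs averaged). Nnat, a proteolipid gene of developing neural tissue, was higher in 2iL, on day 3 and on day 5 (0.98, 0.92 and 1.10), with day 5 levels of 222 to 314 CPM in KO2 and 240 to 254 CPM in KO3, against 99.7 to 149 CPM in WT. Its 2iL call rested on few reads, with 11, 13 and 23 in KO2 and 18, 8 and 31 in KO3, against 6, 2 and 10 in WT. There KO3 library 2 lay within the WT range. Peg13, a non-coding RNA gene within Trappc9, was higher at the same 3 stages as Nnat (0.97, 1.15 and 1.41), and the 2iL call was lost without WT library 1 (adjusted p = 0.0663) or library 2 (adjusted p = 0.059). WT held 1, 1 and 3 reads of Peg13 in 2iL. Trappc9 itself was not called. Zdbf2, a gene of hypothalamic function in mice, was higher in 2iL and on days 1 and 5 (0.71, 0.59 and 0.73), by margins that several single libraries decided. With library pairs averaged its adjusted p was 0.295 on day 1 and 0.107 on day 5. Impact, a regulator of the Gcn2 stress kinase, was called in 2iL only (0.86, SE 0.12, adjusted p = 4.21e-07), and its day 1 and day 3 differences of 0.47 and 0.46 were below 1.5-fold. H13, a signal peptide peptidase gene, was higher in 2iL and on days 3 and 5 by 0.60 to 0.65, and the 2iL call was lost without WT library 1 (adjusted p = 0.0525). Its difference was below 1.5-fold on day 3 without WT library 1 or KO3 library 1 and on day 5 without WT library 3. Its intronic neighbour Mcts2, a paternally expressed retrogene, was lower on days 1, 3 and 5 (-0.61, -0.88 and -0.71), on day 1 by less than 1.5-fold when any of several single libraries was left out. On day 5 Mcts2 stood at 57.0 to 61.2 CPM in KO2 and 35.8 to 37.4 CPM in KO3, against 73.7 to 81.4 CPM in WT.

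In the Dlk1-Meg3 cluster the maternal non-coding RNAs rose and the paternal protein gene did not pass the test. Meg3 was at 977, 913, 1609 and 1869 CPM in KO2 and 1607, 1591, 1741 and 1923 CPM in KO3 on day 1, against 751, 778, 992 and 979 CPM in WT (log2 difference 0.77, SE 0.23, adjusted p = 0.0158). On day 5 it was at 1529, 1493, 1542 and 1760 CPM in KO2 and 1658 and 1675 CPM in KO3, against 725, 556, 1051 and 1071 CPM in WT (0.98, SE 0.25, adjusted p = 0.00286). On day 1 the lower KO2 libraries overlapped WT, and by day 5 no library did. Averaging library pairs left the adjusted p of Meg3 at 0.206 on day 1, 0.162 on day 3 and 0.0507 on day 5. Rian, a host transcript of small nucleolar RNAs, was higher on days 1, 3 and 5 by 0.77, 0.80 and 1.10 (SE 0.16, 0.17 and 0.17), with every depleted library above every WT library on each day. Its change since 2iL differed from WT by 0.85, 0.89 and 1.18 on these days.

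Mirg, a host transcript of microRNAs, was higher in 2iL, at 73.0, 105 and 100 CPM in KO2 and 65.0, 110 and 125 CPM in KO3, against 15.5, 46.9 and 65.2 CPM in WT (log2 difference 1.34, SE 0.28, adjusted p = 6.93e-04). The lowest KO3 library lay just within the WT range. It was called again on day 5 (0.98, SE 0.27, adjusted p = 0.00507; 0.0912 with library pairs averaged). Dlk1, a paternally expressed Notch family ligand gene, stayed between 0 and 5.47 CPM in all libraries and was called at no stage. Rtl1 had 0 reads throughout.

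In the Snrpn domain, where paternally expressed genes are controlled from 1 centre, the depleted lines parted. Snrpn encodes a splicing protein and shares 27.3% of its exon bases with Snurf, which was at 0 reads, and with Gm38393, so its counts may be split. On day 1 it was at 397, 458, 466 and 441 CPM in KO2 and 235, 202, 209 and 229 CPM in KO3, against 355, 326, 327 and 336 CPM in WT. Its day 3 levels were 664, 538, 613 and 628 CPM in KO2 and 271 and 293 CPM in KO3, against 450, 483, 442 and 435 CPM in WT. WT lay between the depleted lines on both days. KO3 minus KO2 was -1.01 (SE 0.09, adjusted p = 1.92e-11) and -1.11 (SE 0.11, adjusted p = 1.74e-09). On day 5 both lines were above WT, at 711, 819, 809 and 806 CPM in KO2 and 571 and 493 CPM in KO3, against 372, 397, 395 and 393 CPM in WT (both lines against WT 0.73, SE 0.08, adjusted p = 5.44e-09).

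Ndn, which encodes the growth suppressor necdin, was lower in KO3 than in KO2 at all 4 stages, by log2 differences of -0.90, -1.45, -1.35 and -1.0 in time order (SE 0.24, 0.20, 0.25 and 0.25). Its day 1 levels were 26.9, 22.8, 28.2 and 21.8 CPM in KO2 and 9.58, 10.7, 7.93 and 6.10 CPM in KO3, against 13.5, 9.91, 10.3 and 13.2 CPM in WT. KO2 was above every library of the other lines on that day. Magel2, a MAGE family gene whose loss causes feeding and growth defects in mice, was at 0 reads in all KO3 and WT libraries in 2iL and at 1.17, 2.03 and 2.09 CPM in KO2. The KO2 mean of 1.76 CPM was at least 2.26-fold above the limit that 3 reads set in a WT library. Its day 1 levels were 15.6, 12.2, 21.7 and 10.4 CPM in KO2 and 1.74, 2.62, 1.93 and 3.39 CPM in KO3, against 2.98, 2.06, 3.10 and 3.41 CPM in WT (KO3 minus KO2 -2.20, SE 0.32, adjusted p = 1.68e-06). Its day 3 levels were 31.3, 28.8, 88.0 and 77.6 CPM in KO2 and 13.4 and 14.8 CPM in KO3, against 21.5, 20.3, 20.2 and 27.7 CPM in WT (-1.75, SE 0.39, adjusted p = 0.00251). In KO3 it was thus near or below WT through day 3.

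On day 5 Magel2 was the member with the largest rise after Peg10 in both lines together, at 21.4, 37.4, 77.7 and 70.9 CPM in KO2 and 57.7 and 47.8 CPM in KO3, against 2.62, 4.76, 10.7 and 5.24 CPM in WT (log2 difference 3.01, SE 0.30, adjusted p = 2.81e-10). Every depleted library was above every WT library, and WT stood lower than its own 20.2 to 27.7 CPM of day 3. Peg12, a paternally expressed gene of the Frat family of Wnt regulators, was the reverse in 2iL, at 0.292, 1.42 and 1.26 CPM in KO2 and 1.33, 0.601 and 0.697 CPM in KO3, against 3.41, 4.42 and 7.72 CPM in WT (-1.65, SE 0.27, adjusted p = 5.62e-06). On day 3 it was called higher (0.70, SE 0.25), a call lost when any of several single libraries was left out or with library pairs averaged (adjusted p = 0.113). Mkrn3 and the maternally expressed ubiquitin ligase gene Ube3a were called at no stage in both lines together. Over the 10 nearest tested genes around the domain, the median log2 difference for KO3 minus KO2 was -0.20, -0.20, -0.25 and 0.01 over the 4 stages.

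**Figure D5:**
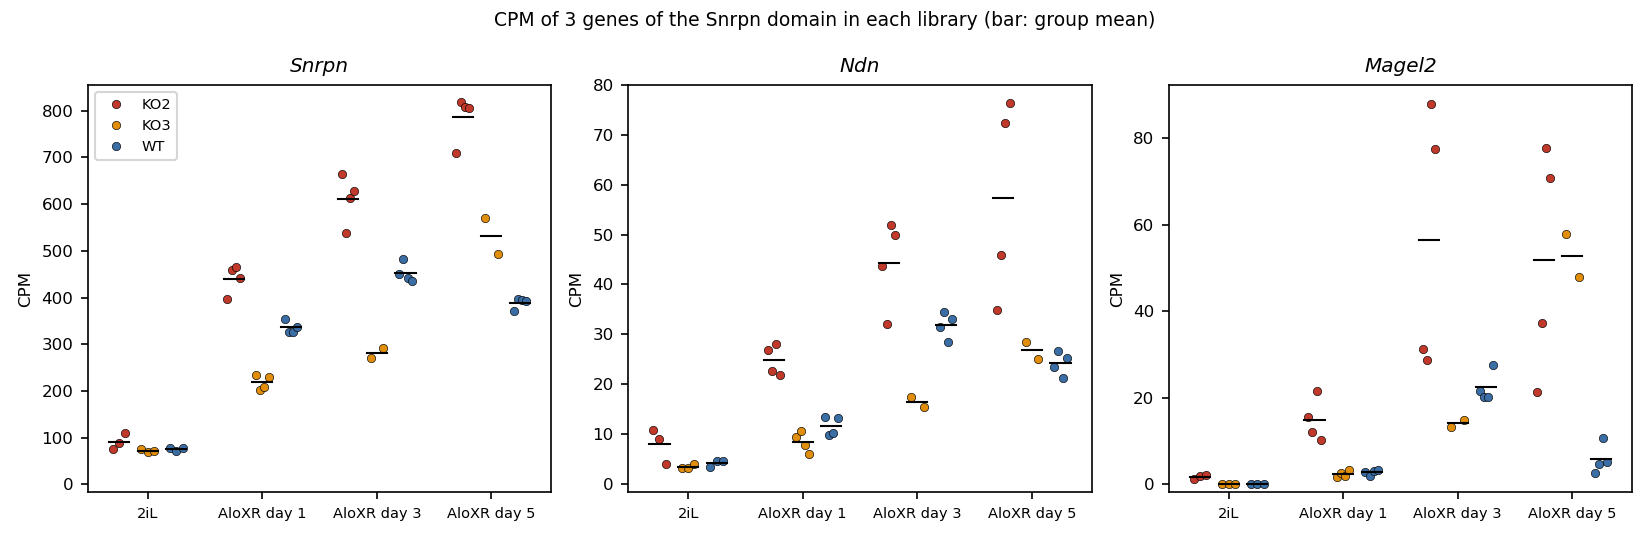
CPM of Snrpn, Ndn and Magel2 in each library on linear axes, by stage and line (KO2 red, KO3 orange, WT blue), with black bars at the group means. KO3 lies below KO2 for all 3 genes on AloXR days 1 and 3, and on day 5 Magel2 stands at 21.4 CPM or more in every depleted library and at 10.7 CPM or less in WT.

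Over all members, KO3 differed from KO2 by 0 higher and 6 lower calls in 2iL, or 13% of members, where 2.5% of all genes were higher and 4.74% lower (7.24% together). On day 1, 4 were higher and 5 lower, or 19.6%, against 8.19% and 6.79% of all genes (15.0% together). On day 3, 1 was higher and 5 lower, against 5.58% and 2.11% of all genes (7.69% together). On day 5, 5 were higher and 4 lower, against 9.02% and 5.06% (14.1% together). In the Peg3 domain KO3 was also below KO2, in 2iL for both genes given here. Usp29, a ubiquitin protease gene, was at 7.59, 7.30 and 10.7 CPM in KO2 and 1.33, 1.60 and 1.92 CPM in KO3 in 2iL, against 2.28, 1.04 and 0.858 CPM in WT. KO3 minus KO2 was -1.85 there, -1.24 on day 1 and -0.86 on day 3 (SE 0.27, 0.23 and 0.29). The day 3 libraries of KO3 were far apart for this gene, at 4.73 and 0.973 CPM, against 4.29 to 6.04 CPM in KO2, so that 1 of them lay within the KO2 range. On day 5 Usp29 was below WT in both lines, at 5.79 to 8.42 CPM in KO2 and 6.04 to 6.79 CPM in KO3, against 10.5 to 14.5 CPM in WT (both lines against WT -0.77, SE 0.22, adjusted p = 0.00529; 0.0947 with library pairs averaged). Peg3, a zinc finger gene of maternal behaviour and growth, was at 47.0, 97.8 and 83.7 CPM in KO2 and 31.6, 25.4 and 37.5 CPM in KO3 in 2iL, against 40.3, 38.8 and 27.7 CPM in WT (KO3 minus KO2 -1.20, SE 0.20, adjusted p = 3.76e-05). Both lines together were above WT on days 1 and 3 (0.59 and 0.81), and the day 1 call was lost with library pairs averaged (adjusted p = 0.105) and without any of several single libraries. Inpp5f, an inositol phosphatase gene called against WT in KO2 alone, was lower in KO3 than in KO2 in 2iL and on days 3 and 5 (-0.63, -0.75 and -0.68).

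The falls in the depleted lines were led by Slc22a3, a maternally expressed organic cation transporter gene of the Igf2r cluster. On day 5 it was at 6.15, 3.31, 0.668 and 1.06 CPM in KO2 and 1.93 and 1.13 CPM in KO3, against 28.6, 29.1, 22.5 and 19 CPM in WT (log2 difference -3.17, SE 0.29, adjusted p = 1.48e-11). WT was at 0 reads in 2iL and higher on each AloXR day, and every depleted library was below every WT library on day 5. On day 1 Slc22a3 was at 0.502, 0.230, 0.47 and 0.818 CPM in KO2 and 0.871, 0, 0.214 and 0 CPM in KO3, against 2.10, 0.561, 2.48 and 2.98 CPM in WT (-1.08, SE 0.27, adjusted p = 0.00261; 0.0507 with library pairs averaged). The lowest WT library overlapped the depleted lines on that day. The change since 2iL differed from WT by -3.66 on day 5 (SE 0.43, adjusted p = 1.00e-08). Igf2r, the scavenger receptor of the Igf2 protein and a neighbour in the cluster, fell on leaving 2iL in every line and was lower on day 5, at 14.9 to 23.8 CPM in KO2 and 26.7 to 30.2 CPM in KO3, against 48.3 to 65.7 CPM in WT (-1.17, SE 0.22, adjusted p = 1.23e-04). Airn, the paternal antisense RNA that silences Slc22a3 in the placenta and Igf2r more widely, had at most 10 reads in any library and was called at no stage.

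Grb10, a growth restraining adaptor of the insulin receptor, was at 19.1, 15.6, 18.5 and 15.8 CPM in KO2 and 8.94 and 10.9 CPM in KO3 on day 5, against 34.5, 25.6, 48.2 and 52.6 CPM in WT (log2 difference -1.5, SE 0.23, adjusted p = 3.16e-06). All depleted libraries were below WT. Ddc, the dopa decarboxylase gene beside it, was lower in 2iL, at 9.35, 10.1 and 15.3 CPM in KO2 and 10.01, 10.6 and 14.1 CPM in KO3, against 20.3, 30.7 and 37.3 CPM in WT (-1.25, SE 0.24, adjusted p = 1.04e-04). In 2iL 4 of the 10 neighbours of this cluster were also lower and none higher, with a median of -0.30, where 7.6% of all genes were lower. Gnas, the locus of the stimulatory G protein alpha subunit, was lower in 2iL and on days 3 and 5 (-0.93, -0.86 and -0.84, SE 0.19, 0.18 and 0.18). Its day 3 levels were 292 to 565 CPM in KO2 and 446 to 451 CPM in KO3, against 718 to 917 CPM in WT, with no overlap. The tags do not tell the transcripts of Gnas with different parental origin apart.

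The members also changed within each line on leaving 2iL. In WT, 19 members were higher and 12 lower on day 1 than in 2iL (67.4% of members, 36.4% of all genes called), 19 and 11 on day 3 (65.2%, against 41.7%) and 18 and 8 on day 5 (56.5%, against 39.4%). Nnat rose most, by 4.05, 5.55 and 5.74 on the log2 scale on days 1, 3 and 5. Snrpn, Ndn and Magel2 rose on all 3 days, and Magel2 was at 0 reads in WT in 2iL. Plagl1 fell most, with changes of -4.74, -4.88 and -4.85, followed on day 5 by Ddc (-3.06) and Slc38a4 (-2.22). Peg10 was called only on day 5 in WT (0.85).

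In KO2 the counts were 17 higher and 8 lower on day 1 (30.2% of all genes called), 15 and 8 on day 3 (35.6%) and 17 and 10 on day 5 (34.5%). In KO3 they were 18 and 7 (33.5%), 22 and 7 (37.1%) and 20 and 10 (41.7%). Meg3 and Rian rose on all 3 days in both depleted lines, by 1.24 to 1.56 for Meg3. For Meg3 the change since 2iL was not called as different from that in WT (log2 differences of changes 0.72, 0.71 and 0.93, adjusted p = 0.215, 0.196 and 0.0673). The change since 2iL differed between depleted lines and WT: it was higher for 5 members and lower for 2 on day 1 (9.15% of all genes called), 8 and 3 on day 3 (14.8%) and 7 and 9 on day 5 (17.9%). Among them Ddc and Peg12, both low in the depleted lines in 2iL, had differences of changes of 1.67 and 2.35 on day 3, and Mcts2 and Usp29 of -1.16 and -1.70. The share of members so called was 15.2%, 23.9% and 34.8%.

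Factors that establish or keep imprints were measured alongside. Of 27 listed, 4 were higher and 2 lower in 2iL, 2 and 2 on day 1, 2 and 1 on day 3, and 3 and 0 on day 5, with medians between -0.14 and 0.14. Of all genes, 15.7%, 11.8%, 17.3% and 20.6% were called in either direction at these stages. Dnmt3l, the cofactor of de novo methylation, was higher in 2iL, on day 3 and on day 5 (log2 differences 1.63, 3.72 and 1.06). Dppa3, which protects the maternal genome from demethylation in the zygote, was higher in 2iL and on days 1 and 3 (1.10, 1.70 and 2.19). Dnmt3a, a de novo methyltransferase, was higher in 2iL (1.00) and lower on days 1 and 3 (-1.47 and -0.90). Setdb1 and Tet3 were lower in 2iL (-0.83 and -0.87), and Zfp57 was higher on day 5 (0.75). Dnmt1, Uhrf1, Trim28, Zfp445 and Ctcf were called at no stage.

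Of 15 tested genes of insulin-like growth factor signalling, 3 were higher and 2 lower in 2iL, 1 and 3 on day 1, 0 and 3 on day 3, and 1 and 5 on day 5. The share of all genes called in either direction was 15.7%, 11.8%, 17.3% and 20.6% at these stages. Irs1, an adaptor of the receptors, was lower at all 4 stages (-0.68, -0.59, -1.76 and -1.38). Igfbp5, a binding protein, was higher in 2iL (1.69) and lower on days 1, 3 and 5 (-1.32, -1.31 and -2.39). On day 5 Igf1r, Insr and Igfbp2 were lower as well (-0.60, -0.75 and -0.96).

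Several members are genes of placenta and extraembryonic tissue, so markers of other cell types were read beside them. Of 15 tested trophoblast markers, which include Ascl2, 5 were higher in both depleted lines together in 2iL, 8 on day 1, 13 on day 3 and 7 on day 5. None was lower in both lines together. Taken singly on day 5, KO2 had 2 of these markers higher and 1 lower, and KO3 had 9 higher and 0 lower. Without Ascl2, the 16 listed markers summed to 464 to 754 CPM in KO2 and 620 to 678 CPM in KO3 on day 3, against 153 to 182 CPM in WT. On day 1 the sums were 161 to 215 CPM in KO2 and 156 to 199 CPM in KO3, against 62.1 to 78.4 CPM in WT, and in 2iL and in KO2 on day 5 the ranges overlapped WT. In KO3 on day 5 they were 582 to 587 CPM, above the 327 to 358 CPM of WT. Prl3d1, which defines giant cells, was at 0 reads in all libraries. Elf5 and Tpbpa were at 0 in several groups. Primitive endoderm markers (12 tested) were higher for 4, 6, 8 and 7 genes over the 4 stages and lower for 2 genes in 2iL, in both lines together. Taken singly on day 5, KO2 had 0 of the 12 higher and 0 lower, and KO3 had 11 higher. The 13 listed primitive endoderm genes summed to 528 to 686 CPM in KO2 and 1251 to 1369 CPM in KO3 on day 5, against 492 to 612 CPM in WT. Fibroblast markers (9 tested) were higher for 4, 5, 5 and 0 genes and lower for 0, 1, 1 and 1. The part of such cells in the differences of the imprinted genes was not tested. Of 8 embryonic stem cell markers, 0, 1, 3 and 4 were higher over the 4 stages in time order and 4, 1, 0 and 1 lower. Beside these marker counts, 8.11%, 6.31%, 10.8% and 8.89% of all genes were higher in both lines together, and 7.6%, 5.5%, 6.49% and 11.7% lower.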

How the data were processed

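QuantSeq 3′ tag libraries (41) were analysed from 1 table of CPM (counts scaled to 1000000 assigned reads) deposited by the authors; it holds 55487 genes. Per the submitters' processing notes, STAR 2.7.6a, Subread and featureCounts 2.0.1 were used with GRCm38; the strand setting and the gene annotation are not given in the sources used here. Whole reads were recovered for 766190 of 766190 values above 0 (100%, within 0.01 of a whole read). The labels give line and treatment, and each library entered as 1 replicate.

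The 16967 genes that reached 1 CPM in 3 or more libraries were fitted as log2(CPM + 1) with 12 group means in limma 3.58.1 (R 4.3.3), with moderated variances (trend and robust options) and Benjamini-Hochberg adjustment over all of them. Adding 1 CPM understates the change of low genes. The fit was tested on simulated data. Members, gene lists and comparisons were chosen with earlier results of these data known. Values in every library are given for H19, Igf2, Peg10, Sgce, up to 8 called members with the largest change per stage, and members called in opposite directions in KO2 and KO3; further ones were chosen after their values were seen. Positions are from the GRCm38 annotation of the reference, and promoter windows from RefSeq. Alternatives were another pseudocount (0.5 or 5 CPM), filter, scaling (TMM, quantile), no fold minimum, values centred on chromosomal neighbours, edgeR 4.0.16 on the recovered reads, only the groups compared, and libraries left out. Averaging library pairs was added after seeing the data.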

Additional observations from a re-analysis of the deposited data

Results flagged for a closer look

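The change since 2iL differed between the depleted lines and WT, as a tested difference of changes on the log2 scale (depleted minus WT), for 34 member and day pairs. On day 1 it was higher for Plagl1 (1.71), Peg12 (1.58), Grb10 (1.15), Rian (0.85) and Gnas (0.83), and lower for Slc22a3 (-1.58) and Mcts2 (-0.89). On day 3 it was higher for Peg12 (2.35), Ascl2 (2.11), Plagl1 (2.09), Ddc (1.67), Nap1l5 (1.19), Slc38a4 (1.07), Rian (0.89) and Cd81 (0.61), and lower for Usp29 (-1.70), Slc22a3 (-1.49) and Mcts2 (-1.16). On day 5 it was higher for Plagl1 (2.47), Magel2 (2.28), Peg12 (2.08), Nap1l5 (1.95), Ddc (1.69), Rian (1.18) and Snrpn (0.63). On the same day it was lower for Slc22a3 (-3.66), H19 (-3.34), Usp29 (-1.87), Igf2r (-1.23), Sgce (-1.21), Copg2 (-1.04), Grb10 (-1.04), Mcts2 (-0.99) and Impact (-0.71).

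KO3 and KO2, both labelled as depleted for Esrrb, differed from each other in 30 member and stage pairs (log2, KO3 minus KO2). In 2iL KO3 was lower for Usp29 (-1.85), Cdkn1c (-1.70), Magel2 (-1.45), Peg3 (-1.20), Ndn (-0.90) and Inpp5f (-0.63), and the Magel2 and Inpp5f calls were lost without 2iL library 3 of each line. On day 1 KO3 was higher for Rian (0.88), Sgce (0.82), Peg10 (0.81) and Nnat (0.71), and lower for Magel2 (-2.20), Ndn (-1.45), Usp29 (-1.24), Snrpn (-1.01) and Peg12 (-0.98). On day 3 KO3 was higher for Ascl2 (1.27) and lower for Magel2 (-1.75), Ndn (-1.35), Snrpn (-1.11), Usp29 (-0.86) and Inpp5f (-0.75). On day 5 KO3 was higher for Cdkn1c (2.7), Kcnq1ot1 (1.74), Ascl2 (1.29), Impact (0.75) and H13 (0.72), and lower for Peg12 (-1.28), Ndn (-1.0), Mcts2 (-0.69) and Inpp5f (-0.68).

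Single libraries stood far from the others of their group in 17 of 290 groups of 4 libraries tested, where chance gives about 14.5. Among KO2 libraries, Phlda2 reached 5.31 CPM in 1 library on day 5 (others 2.84 to 3.12), Copg2 65.5 CPM on day 5 (others 42.3 to 44.8) and Trappc9 6.53 CPM on day 1 (others 5.12 to 5.29). On the low side, Mest was at 216 CPM in 1 KO2 library on day 1 (others 370 to 380), and on day 5 Snrpn was at 711 CPM (others 806 to 819), Igf2r at 14.9 CPM (others 22.9 to 23.8) and H13 at 12.3 CPM (others 23.2 to 25.1). Among KO3 libraries on day 1, Rian was at 253 CPM (others 226 to 230) and Inpp5f at 27.8 CPM (others 21 to 21.3). Among WT libraries, Nap1l4 was high at 258 CPM on day 1 (others 246 to 248), Sgce at 6.77 CPM on day 3 (others 2.71 to 3.25), Copg2 at 60.2 CPM on day 3 (others 51.7 to 52.7) and Mkrn3 at 12.4 CPM on day 5 (others 9.38 to 9.71). WT was low in 1 library for Ddc at 1.75 CPM on day 5 (others 2.77 to 2.96), Snrpn at 372 CPM on day 5 (others 393 to 397), Impact at 125 CPM on day 3 (others 145 to 147) and Peg13 at 0.227 CPM on day 5 (others 1.31 to 1.53).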

How the results depend on the processing

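Of 344 counts of called members under 14 settings other than leaving out single libraries, 330 stayed within 1.5 times the count reported, and no direction reversed. With library pairs averaged, an alternative chosen after seeing the data that removes degrees of freedom, both depleted lines against WT on AloXR day 1 gave 8 called members (reported 16). Under the same setting KO2 against WT gave 8 on day 1 (16), 10 on day 3 (19) and 13 on day 5 (24), KO3 against WT 8 on day 1 (19), KO3 against KO2 5 on day 1 (9), and the difference of changes 4 on day 1 (7) and 7 on day 3 (11). A pseudocount of 5 CPM gave 8 for both lines against WT on day 1 (16) and 3 for KO3 against KO2 in 2iL (6). With only the groups compared in the fit, 2iL gave 10 for KO2 against WT (18), 5 for KO3 against WT (11) and 2 for KO3 against KO2 (6). Without 2iL library 3 of each line, KO3 against KO2 on day 3 gave 10 (6). The cause was not tested.

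Leaving out each library in turn gave 12 to 18 called members in 2iL for both lines against WT, 10 to 17 on day 1 (lowest without WT library 2), 18 to 23 on day 3 and 22 to 24 on day 5. For KO3 against KO2 the range was 3 to 9 on day 3 (without KO3 library 2 and KO2 library 1) and 5 to 10 on day 5, and for the difference of changes on day 1 it was 4 to 13 (without WT 2iL libraries 2 and 3). KO3 on days 3 and 5 then keeps 1 library, which is assumed to vary like the other groups. Of 75 calls of a member at a stage for both lines against WT, 19 were lost with library pairs averaged, 21 with a pseudocount of 5 CPM, 7 with only the groups compared and 1 in edgeR. H19 and Peg10 kept their calls at all 4 stages under these settings. TMM factors moved single libraries by up to 0.13 on the log2 scale, while the median over all genes of both lines against WT stayed between -0.02 and 0.04 under TMM and quantile scaling. No paired analysis was possible because the labels give the groups no shared replicate numbers. Members below about 1 CPM lie near the limit of 3 reads, where a change can go undetected at this depth and a call rests on few reads.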
